A study of Mus musculus with 6 samples.

Results

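The immunoglobulin light-chain variable genes were taken as every entry of the gene count table whose symbol starts with *Igkv* (kappa) or *Iglv* (lambda), which gave 163 of 48440 genes. Of these, 160 were *Igkv* genes and 3 were *Iglv* genes. The libraries came from L3/4 dorsal root ganglia (DRGs) of male wild-type mice whose ganglia on 1 side were microinjected with virus. In 3 libraries the virus was AAV5-*Gfp*, the control vector, and in 3 it was the mixture of AAV5-*V1* and AAV5-*V2*, which carry the variants of *NIS-lncRNA*, labelled AAV5-NIS V1 and V2 by the submitters and written AAV5-*V1+V2* here. The series gives week 5 as the time of harvest in 1 sentence and week 4 as the time of profiling in the next. Both groups received an AAV5 vector, no library came from an uninjected ganglion, and a difference between the groups cannot be told apart from a difference between their virus preparations. The age of the mice and how many mice went into 1 library are not given in the sources used here, so p-values measure the spread between these libraries, which may in part be technical.

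An antibody pairs heavy chains with light chains, and the variable parts of both together bind the antigen. Each developing B cell joins 1 variable gene to 1 joining gene, at the kappa locus or at a lambda locus, and the joined segment is spliced to a constant gene, *Igkc* or an *Iglc* gene. Transcripts of many different variable genes therefore come from many B-lineage clones, whereas a clone and its daughter plasma cells all use the same variable gene. Plasma cells, the antibody-secreting end stage, hold far more light-chain mRNA per cell than B cells, and mouse light chains are mainly of the kappa type. In whole ganglia, more cells and more RNA per cell cannot be told apart.

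The 3′ ends of 9 of these genes are shown because they let a reader see how different, or how alike, the genes behind the main results are. Each is the last 60 bases of the germline transcript (GENCODE M21 annotation of GRCm38), 5′ to 3′ on the gene's own strand, up to the point where a rearranged gene joins its joining segment. The capitals mark the last in-frame cysteine codon (TGT or TGC), which anchors the start of the third antigen-contact loop. It began 26 to 28 bases before the end in 92 of 103 annotated variable genes with a start codon and such a codon in the last 60 bases. *Igkv6-15*, *Igkv5-39* and *Igkv19-93* were the most counted genes of AAV5-*V1+V2* replicates 1, 2 and 3, respectively.
Igkv6-15, chr6:70406469-70406528, minus strand: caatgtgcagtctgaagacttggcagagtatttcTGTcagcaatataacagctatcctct
Igkv5-39, chr6:69900424-69900483, minus strand: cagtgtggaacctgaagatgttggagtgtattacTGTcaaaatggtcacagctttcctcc
Igkv19-93, chr6:68736297-68736356, minus strand: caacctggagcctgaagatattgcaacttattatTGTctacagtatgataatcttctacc
Igkv12-44, chr6:69814631-69814690, minus strand: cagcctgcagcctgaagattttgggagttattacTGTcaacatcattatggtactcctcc
Igkv12-46, chr6:69764523-69764582, minus strand: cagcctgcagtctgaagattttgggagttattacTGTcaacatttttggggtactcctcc
Igkv17-121, chr6:68037259-68037318, plus strand: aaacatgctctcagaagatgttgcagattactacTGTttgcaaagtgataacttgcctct
Igkv17-127, chr6:67861600-67861659, plus strand: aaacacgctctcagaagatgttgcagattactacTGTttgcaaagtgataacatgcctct
Iglv1, chr16:19085017-19085076, minus strand: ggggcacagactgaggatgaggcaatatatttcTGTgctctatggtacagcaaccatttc
Iglv2, chr16:19260401-19260460, minus strand: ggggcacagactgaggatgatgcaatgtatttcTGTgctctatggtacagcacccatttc

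*Igkv12-44* and *Igkv12-46*, which like *Igkv5-39* were among the 10 most counted genes of every AAV5-*V1+V2* library, differed at 5 of these 60 bases and were 94.4% identical over their transcripts. *Igkv17-121* and *Igkv17-127* differed at 2 of the 60 bases and were 97.5% identical, and *Iglv1* and *Iglv2* differed at 3 and were 96.7% identical. *Igkv5-43* and *Igkv5-45*, 98.4% identical, had the same last 60 bases. In all, 26 of the 163 genes had another at 97% identity or more. Of the 40 genes that passed the filter on low counts, 7 had no stretch of 50 bases in common with another annotated transcript (*Igkv5-39* and *Igkv19-93* among them), and the median gene had 68.4% of its 50-base stretches to itself. How the counting treated reads that fit several genes is not given in the sources used here, and a read from a mutated antibody transcript can fit a relative better than its own gene, so counts of close relatives are uncertain.

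Total counts were 32618252 to 34764282 in the AAV5-*Gfp* libraries and 32025612 to 34228594 in the AAV5-*V1+V2* libraries, and sets of 3 values below are given in the order of replicates 1, 2 and 3. Of 12 DRG neuron markers, all were counted in every library, and their summed level was 3961 to 4199 CPM in AAV5-*Gfp* and 2542 to 3498 CPM in AAV5-*V1+V2* libraries. CPM are counts scaled to a common library size after correction by trimmed mean of M values.

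Light-chain variable counts were sparse in the control ganglia and abundant after AAV5-*V1+V2*. The summed count of all 163 genes was 253, 102 and 56 in the controls, against 14349, 10646 and 10725 after AAV5-*V1+V2*. On the CPM scale this was 4.19 ± 3.21 against 356 ± 69.3 (SD, n = 3), a ratio of the means of 85.0. The groups did not overlap, and the lowest AAV5-*V1+V2* library held 42.1 times the count of the highest AAV5-*Gfp* library. An exact two-sided permutation test of 3 against 3 libraries cannot go below p = 0.1, so no p-value is given for such sums.

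**Figure D1:**
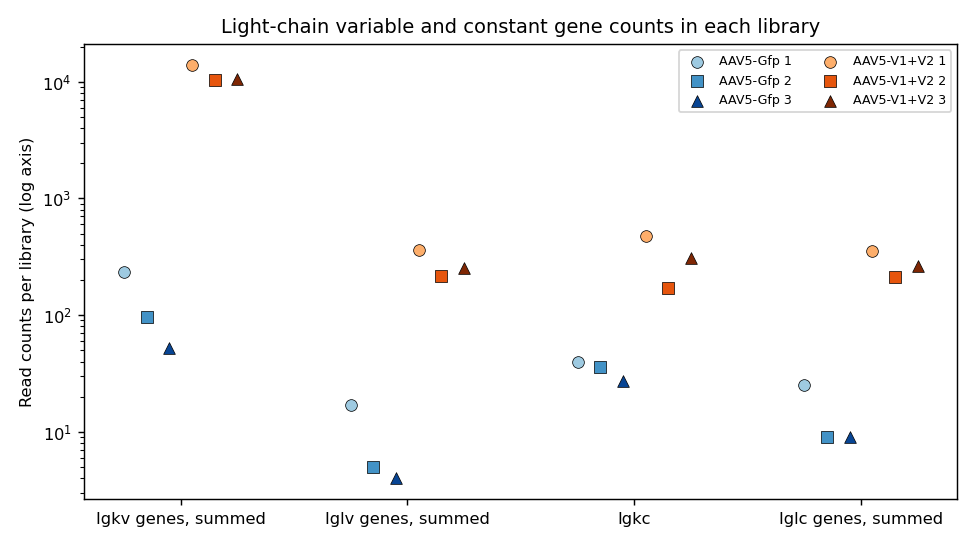
Read counts per library (log axis) summed over the *Igkv* genes and over the *Iglv* genes, and for the constant genes *Igkc* and *Iglc*, with 1 point per library. All AAV5-*V1+V2* points lie above all AAV5-*Gfp* points in each column, and the *Igkv* sums of the AAV5-*V1+V2* libraries (10430 to 13989) stand far above their *Igkc* counts (171 to 475).

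At the level of single genes, 115 of the 163 had at least 1 count in some library and 48 had none in any. Of the 115, 74 had counts in both groups, 41 had counts only in AAV5-*V1+V2* libraries and 0 only in AAV5-*Gfp* libraries. A total of 40 genes passed the filter on low counts. None of them had 10 or more counts in all 3 AAV5-*Gfp* libraries, and 21 had 3 counts or fewer in each. All 40 thus needed AAV5-*V1+V2* libraries to pass, which builds in a difference. The counts that follow describe those 40 genes and not the family, and shares over all genes are given for scale only. Of them, 35 rose (edgeR's quasi-likelihood test, Benjamini-Hochberg adjusted p under 0.05), against 10.1% of all 18593 genes tested that were called higher. None fell, against 5.27% of all genes called lower, and none had a lower level at an unadjusted p under 0.05 with edgeR. DESeq2 called 36 of the 40 higher (12.9% of all genes) and limma-voom 20 (7.64% of all genes), and both called 0 lower. Among the genes named below, limma-voom did not call *Igkv6-15*, *Igkv19-93*, *Igkv12-44*, *Igkv5-43*, *Igkv3-2*, *Igkv8-27*, *Igkv10-96* and *Igkv1-117*. In 37 of the 40 every AAV5-*V1+V2* library lay above every AAV5-*Gfp* library in CPM, against 23.4% of all genes tested.

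The median log2 fold change of the 40 was 7.12, or 6.41 with genes at 0 in every AAV5-*Gfp* library set to the lowest fold their counts allow (a floor of 3 counts per library), and the median of all genes tested was -0.000298. Most calls needed all 3 control libraries. Without AAV5-*Gfp* replicate 1 the count of genes called higher was 13, without replicate 2 it was 2 and without replicate 3 it was 3, each of 58 genes then tested. Over the whole table the share called higher was then 1.35%, 0.0634% and 0.0792%, respectively. At an unadjusted p under 0.05 with edgeR, 56, 55 and 52 of the 58 differed, and none of the 58 had a negative fold change. The share of all genes at that unadjusted threshold is not given, and the filter on low counts builds in a difference here as well. These counts therefore do not make up for the lost calls. *Igkv12-46* and *Igkv12-40* were called in all of these fits (*Igkv12-40* lies outside the rule for named genes and was picked after its values were seen).

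In the 4 genes with the smallest adjusted p, the highest AAV5-*V1+V2* library was 1.29 to 2.38 times the lowest in CPM. A small adjusted p favours genes whose libraries are alike, so this narrow range follows in part from the choice of genes. *Igkv12-46* had 11, 2 and 0 counts in the controls against 663, 692 and 552 after AAV5-*V1+V2*. All 3 AAV5-*V1+V2* libraries were alike, and the log2 fold change was 7.12 (SE 0.52; edgeR adjusted p = 0.00355). It was 9.12 without AAV5-*Gfp* replicate 1, the control library with the most counts of this gene, and 6.58 without replicate 3. *Igkv4-68* was at 0, 1 and 0 against 64, 63 and 47 counts, a ratio of summed, depth-scaled counts of 170 with a 95% counting interval of 30.1 to 6750 (edgeR adjusted p = 0.00481). *Igkv4-55*, a relative 95.8% identical to *Igkv4-68*, was at 4, 1 and 2 against 55, 96 and 79 counts. Its log2 fold change was 4.93 (SE 0.43; edgeR adjusted p = 0.00616). Without 1 library the log2 fold change of *Igkv4-55* reached 5.54 (AAV5-*Gfp* replicate 1) and that of *Igkv4-68*, 6.96 with all, reached 8.83 (AAV5-*Gfp* replicate 2). Counting intervals here and below cover counting error only.

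*Iglv1*, the fourth of these genes, is 1 of the 3 lambda variable genes, on chromosome 16. It had 1, 0 and 0 counts in AAV5-*Gfp* and 201, 133 and 88 in AAV5-*V1+V2* libraries, a ratio of 412 with a counting interval of 73.6 to 16300 (edgeR adjusted p = 0.00533). *Iglv3* had 13, 5 and 4 against 130, 73 and 155 counts. Its log2 fold change was 3.96 (SE 0.46; edgeR adjusted p = 0.0139), and it was the most counted lambda gene in each control library. The changes of *Iglv1* and *Iglv3* were not tested against each other. Without AAV5-*Gfp* replicate 1 the log2 fold change was 4.67 for *Iglv3* and 10.13 in place of 8.24 for *Iglv1*. *Iglv2* had 3, 0 and 0 against 29, 10 and 10 counts and did not pass the filter. The ratio of its sums was 15.9 with a counting interval of 5.15 to 80.

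The most counted gene was a different one in each AAV5-*V1+V2* library. *Igkv6-15* had 9, 1 and 1 counts in the controls against 4220, 718 and 82 after AAV5-*V1+V2*. The first of these was 29.4% of all light-chain variable counts of its library. The log2 fold change of *Igkv6-15* was 8.77 (SE 1.89; edgeR adjusted p = 0.0278), and it ranged from 6.69 without AAV5-*V1+V2* replicate 1 to 10.54 without AAV5-*Gfp* replicate 1. *Igkv19-93* had 2, 5 and 0 against 434, 130 and 1830 counts, and here replicate 3 was highest, with 17.1% of its library's light-chain variable counts. Its log2 fold change was 8.29 (SE 1.39; edgeR adjusted p = 0.0168), from 6.85 without AAV5-*V1+V2* replicate 3 to 9.38 without AAV5-*Gfp* replicate 2. *Igkv5-39* had 28, 1 and 2 against 575, 1426 and 603 counts. It was the most counted gene both of AAV5-*V1+V2* replicate 2, with 13.4%, and of AAV5-*Gfp* replicate 1, with 11.1%. Its log2 fold change was 6.34 (SE 0.79; edgeR adjusted p = 0.0139), and 9.04 without AAV5-*Gfp* replicate 1.

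*Igkv12-44* had 3, 1 and 2 counts in AAV5-*Gfp* and 1592, 727 and 325 in AAV5-*V1+V2* libraries. The log2 fold change was 8.68 (SE 0.92; edgeR adjusted p = 0.0105), and leaving out any 1 library gave 7.92 to 9.09, the lowest without AAV5-*V1+V2* replicate 1. *Igkv17-127* had 5, 2 and 0 against 196, 854 and 269 counts (log2 fold change 7.45, SE 0.93; edgeR adjusted p = 0.0139), with 8.59 without AAV5-*Gfp* replicate 1 and 6.53 without AAV5-*V1+V2* replicate 2. Its close relative *Igkv17-121*, named for that likeness and outside the rule, was at 0 in all AAV5-*Gfp* libraries and at 461, 238 and 107 counts in the others, so the pair peaked in different AAV5-*V1+V2* libraries. *Igkv5-43* had 2, 1 and 1 against 71, 621 and 447 counts (log2 fold change 7.98, SE 1.11; edgeR adjusted p = 0.0144). *Igkv5-45*, named likewise, was at 284, 156 and 77 counts after AAV5-*V1+V2*, again in another order.

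A further 3 of the most abundant genes lay mainly in AAV5-*V1+V2* replicate 3. *Igkv3-2*, the gene nearest the joining genes among those named, had 2, 0 and 0 counts against 66, 408 and 1449, a ratio of 939 with a counting interval of 260 to 7760 (edgeR adjusted p = 0.0184). *Igkv8-27* had 0, 2 and 0 against 11, 188 and 1340 counts, a ratio of 751 with a counting interval of 208 to 6210 (edgeR adjusted p = 0.0365). *Igkv3-4* had 1, 2 and 0 against 20, 16 and 967 counts, and it was not called (edgeR adjusted p = 0.0556), although the groups did not overlap. Without AAV5-*V1+V2* replicate 3 it passed the threshold, with a log2 fold change of 4.01 in place of 8.16. For *Igkv8-27* the log2 fold change was 9.28 with all libraries, 6.96 without AAV5-*V1+V2* replicate 3 and 11.95 without AAV5-*Gfp* replicate 2, and the call was lost without AAV5-*V1+V2* replicate 2 (9.68). For *Igkv3-2* it was 9.61 with all libraries, 8.21 without AAV5-*V1+V2* replicate 3 and 12.29 without AAV5-*Gfp* replicate 1.

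**Figure D2:**
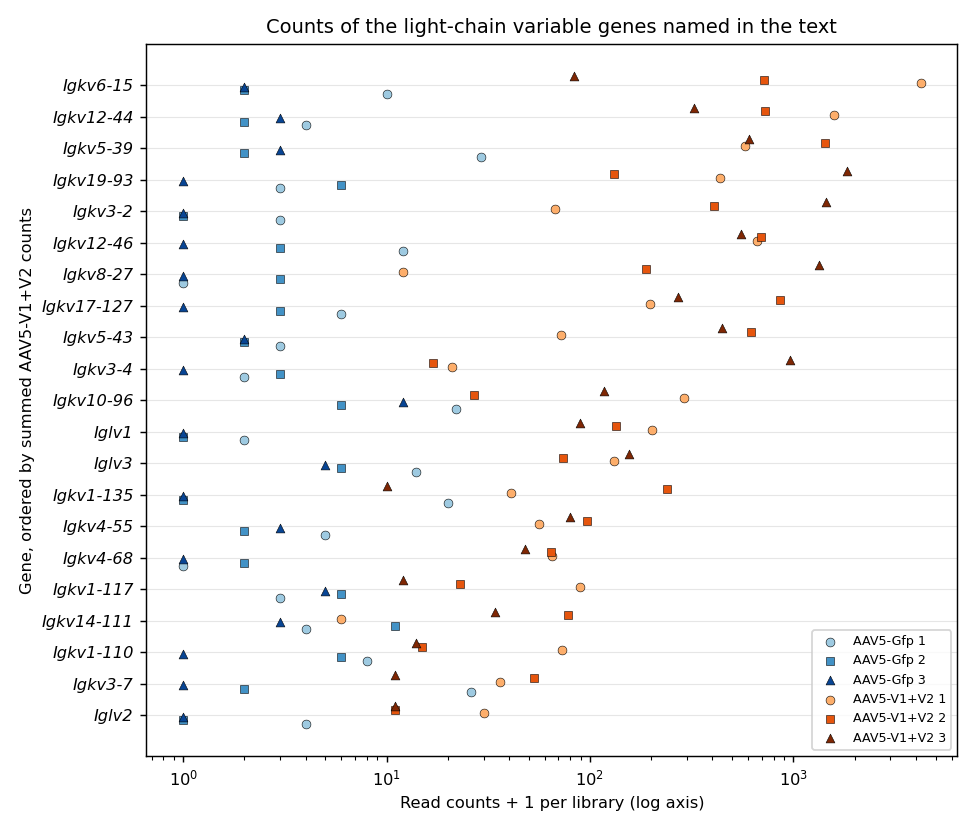
Read counts plus 1 (log axis) of each light-chain variable gene chosen by the naming rule, with 1 point per library; blue points are AAV5-*Gfp* and orange to brown points AAV5-*V1+V2*. The points of the 2 groups are far apart for most genes, and the order of the AAV5-*V1+V2* libraries changes from gene to gene, as for *Igkv6-15* (4220, 718 and 82 counts) and *Igkv8-27* (11, 188 and 1340 counts).

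Apart from *Igkv3-4*, the tested genes that missed the threshold had counts in 1 or more control libraries that came close to those of an AAV5-*V1+V2* library. Some called genes had this too, among them *Igkv10-96*, with 21 counts in AAV5-*Gfp* replicate 1 and 26 in AAV5-*V1+V2* replicate 2. *Igkv3-7* had 25, 1 and 0 counts against 35, 52 and 10, so that the groups overlapped (log2 fold change 1.85, SE 1.07; edgeR adjusted p = 0.261). *Igkv1-135* had 19, 0 and 0 against 40, 239 and 9 counts, with AAV5-*V1+V2* replicate 3 below AAV5-*Gfp* replicate 1 (edgeR adjusted p = 0.1098). *Igkv3-12*, which falls outside the naming rule and is given to complete the 5 genes not called, had 17, 2 and 0 against 13, 10 and 11 counts (edgeR adjusted p = 0.565). For these 3 the high control value was that of AAV5-*Gfp* replicate 1 alone. Without that library the log2 fold change of *Igkv1-135* was 9.59 in place of 3.86 and that of *Igkv3-7* was 5.69 in place of 1.85. *Igkv1-110* had 7, 5 and 0 against 72, 14 and 13 counts (edgeR adjusted p = 0.0811), and *Igkv1-117*, 97.5% identical to it, had 2, 5 and 4 against 88, 22 and 11 counts (edgeR adjusted p = 0.0485). With genes of 97% identity or more summed, the pair was called higher, at a log2 fold change of 3.22. Without AAV5-*V1+V2* replicate 1, the highest library of both, the log2 fold change was 1.69 in place of 2.99 for *Igkv1-110* and 2.10 in place of 3.40 for *Igkv1-117*, whose call was lost without AAV5-*V1+V2* replicate 2 (3.71).

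The genes most counted in the control libraries were of 3 kinds. *Igkv10-96* was present in all: 21, 5 and 11 counts in the controls against 288, 26 and 116 (log2 fold change 3.49, SE 0.90; edgeR adjusted p = 0.0431). It was the most counted gene of AAV5-*Gfp* replicate 3, and its call was lost without AAV5-*V1+V2* replicate 1 (log2 fold change 2.45). *Igkv14-111*, most counted in AAV5-*Gfp* replicate 2, had 3, 10 and 2 against 5, 77 and 33 counts, and it did not pass the filter. The third kind, *Igkv5-39*, *Igkv3-7*, *Igkv1-135* and *Igkv3-12*, was high in AAV5-*Gfp* replicate 1 alone.

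Kappa genes made up a larger part of variable counts after AAV5-*V1+V2*. The kappa share was 93.3%, 95.1% and 92.9% in the controls, with exact 95% binomial intervals of 89.5 to 96.0%, 88.9 to 98.4% and 82.7 to 98.0%. After AAV5-*V1+V2* it was 97.5%, 98.0% and 97.6%, with all intervals within 97.2 to 98.2%. The groups did not overlap, with means of 93.8% ± 1.19 and 97.7% ± 0.246 (SD, n = 3), a difference of 3.96 percentage points; the exact two-sided permutation p was 0.1, the smallest that 3 against 3 libraries allow. The intervals of AAV5-*Gfp* replicates 2 and 3, with 102 and 56 counts, reach into the range of the other group. The ratio of kappa to lambda counts was 13.9, 19.4 and 13.0 against 38.9, 48.3 and 41.4, and per kilobase of transcript it was 14.4, 19.9 and 13.3 against 41.0, 50.6 and 43.3.

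The constant genes gave the opposite order. *Igkc* had 40, 36 and 27 counts in AAV5-*Gfp* and 475, 171 and 306 in AAV5-*V1+V2* libraries, and it rose (log2 fold change 3.17, SE 0.39; edgeR adjusted p = 0.0139). The *Iglc* genes summed to 25, 9 and 9 against 357, 213 and 266 counts, nearly all of them from *Iglc2* (log2 fold change 4.40, SE 0.38; edgeR adjusted p = 0.00598). *Igkc* was thus 72.2% ± 9.55 of constant-gene counts in AAV5-*Gfp* and 51.7% ± 6.47 in AAV5-*V1+V2* libraries (SD, n = 3), where the variable genes had given a rise of the kappa share. After AAV5-*V1+V2* the *Igkc* counts were very low beside the *Igkv* sums of 10430 to 13989. *Iglc3*, 94.9% identical to *Iglc2*, was at 0 in every AAV5-*V1+V2* library. How reads were assigned is not given in the sources used here, so the constant-gene share cannot be read as the use of kappa against lambda. Per kilobase of transcript there were 8.57, 3.85 and 2.76 *Igkv* counts for each *Igkc* count in AAV5-*Gfp* and 42.9, 88.1 and 49.6 in AAV5-*V1+V2* libraries. For lambda the same ratio of *Iglv* to *Iglc* was 1.01, 0.851 and 0.707 against 1.57, 1.59 and 1.5. *Iglc1* was at 0 in all 6 libraries, as were all 9 joining genes. The mean of this ratio of variable to constant counts was 11.9 times higher after AAV5-*V1+V2* for kappa and 1.81 times higher for lambda, without overlap of the groups in either, and the reason was not tested.

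The subfamilies, groups of variable genes of like sequence, took different shares in each AAV5-*V1+V2* library. Of 23 subfamilies 22 had counts, and 21 had a higher CPM in every AAV5-*V1+V2* library than in any AAV5-*Gfp* library. Among all single genes tested this held for 23.4%, given for scale only, since a subfamily can sum several genes. Some of the 21 rested on few counts. *Igkv7* had 0 control counts against 24, 1 and 1, and *Igkv11* had 0 against 2, 12 and 5. *Igkv6* genes held 42.2%, 16.1% and 4.78% of light-chain variable counts after AAV5-*V1+V2*, and 8.70%, 8.82% and 10.7% in AAV5-*Gfp* libraries. *Igkv5* genes held 7.88%, 21.9% and 10.9% against 12.3%, 2.94% and 5.36%. *Igkv3* genes held 2.19%, 4.91% and 22.9% against 20.2%, 6.86% and 0%, where the exact interval of 0 of 56 counts reaches 6.375%. In replicate 1 the *Igkv6* share was mainly *Igkv6-15*, in replicate 2 the *Igkv5* share was mainly *Igkv5-39*, and in replicate 3 the *Igkv3* share was mainly *Igkv3-2* and *Igkv3-4*.

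The shares of 9 subfamilies did not overlap between the groups, but few control counts stood behind most of them. *Igkv12* genes held 17.2%, 14.7% and 9.29% in AAV5-*V1+V2* libraries against 6.32%, 3.92% and 5.36% in AAV5-*Gfp* libraries, where the control intervals reached 10.1%, 9.74% and 14.9%. *Igkv17* genes held 4.58%, 10.3% and 3.51% against 1.98%, 1.96% and 0%, a difference not detectable at the depth of AAV5-*Gfp* replicate 3, whose 0 of 56 counts allows up to 6.375%. The shares of *Igkv1* (1.72%, 5.50% and 1.30% against 11.9%, 12.7% and 8.93%) and of *Igkv10* (2.23%, 0.348% and 1.14% against 10.3%, 5.88% and 21.4%) were lower in every AAV5-*V1+V2* library, although the CPM of both subfamilies was higher there. The intervals of AAV5-*Gfp* replicate 3 for *Igkv1* (2.96 to 19.6%) and of replicate 2 for *Igkv10* (2.19 to 12.4%) reached into the other group. *Iglv3* and *Igkv14* were the other 2 of the 4 subfamilies with lower shares. *Igkv7*, *Igkv11* and *Iglv1* were the other 3 of the 5 with higher shares, but *Igkv7* and *Igkv11* had 0 control counts and *Iglv1* had 1. A count of 0 allows shares of 1.447%, 3.552% and 6.375% in the controls, so no difference in share was detectable for these 3.

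**Figure D3:**
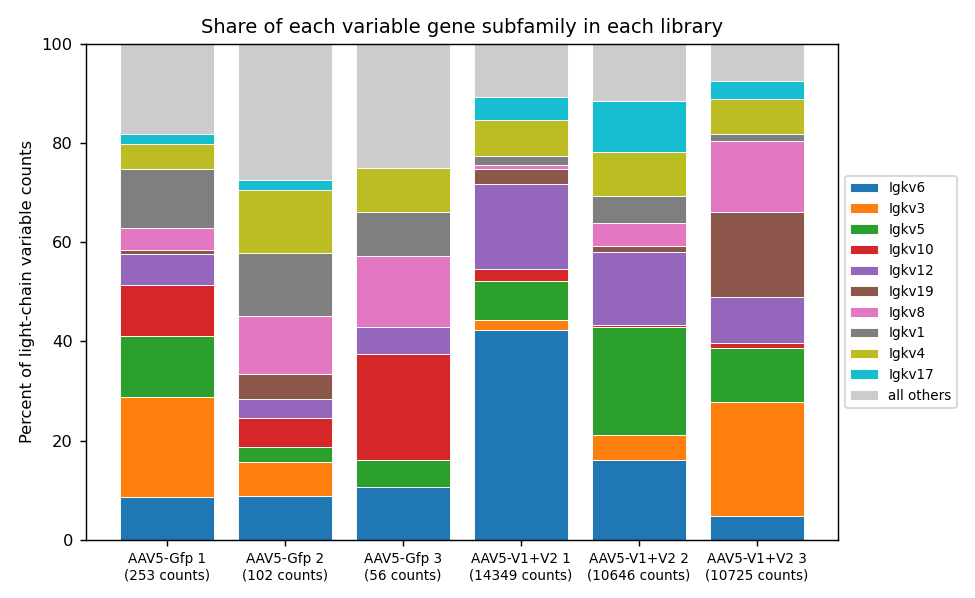
Percent of light-chain variable counts in each library (bars, stacked to 100%) held by the 10 subfamilies with the highest share in any library, the rest in grey; the number of counts behind each bar stands under it. *Igkv6* fills 42.2% of the bar of AAV5-*V1+V2* replicate 1 and 4.78% of that of replicate 3, whereas *Igkv3* goes from 2.19% to 22.9%.

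The AAV5-*V1+V2* libraries had most of their detected genes in common, and their ranks in part. Replicates 1 and 2 had 94 detected genes in common, replicates 1 and 3 had 89, and replicates 2 and 3 had 88, of 105, 100 and 96 detected in each. Each library detected most of the 115 genes with a count in any library, so large overlaps had to arise. Of the 19 genes among the 10 most counted of any of the 3 libraries, 3 were on all lists (*Igkv12-44*, *Igkv12-46* and *Igkv5-39*), and pairs of libraries shared 4, 4 and 6. Spearman's rho of the counts over the 40 tested genes was 0.295, 0.316 and 0.323 for the 3 pairs, a description across genes that share library depth and, for relatives, reads.

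The highest of the 3 AAV5-*V1+V2* libraries was 6.51 times the lowest at the median of the 40 tested genes, from 1.29 for *Igkv12-46* to 117 for *Igkv8-27*. The same measure was 1.74 at the median of all 1872 genes called higher and 2.31 at the median of 7 heavy-chain constant genes. These sets are not matched on count level. The 40 include genes not called, whereas being called favours genes with little spread. The tested light-chain variable genes were highest in replicate 1 in 19 cases, in replicate 2 in 14 and in replicate 3 in 7. Of 58 genes with at least 50 counts over the 3 libraries, 15 had 80% or more of them in 1 library. In replicate 1 these were 7 genes, *Igkv6-15* and *Igkv6-23* among them; in replicate 2 they were 4, *Igkv6-17* and *Igkv1-135* among them; and in replicate 3 they were 4, *Igkv8-27* and *Igkv3-4* among them. *Igkv6-23* and *Igkv6-17* fall outside the naming rule and were picked after their values were seen.

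More genes were detected after AAV5-*V1+V2*, with 105, 100 and 96 against 51, 48 and 26 in AAV5-*Gfp* libraries (1 count or more). Control libraries with so few counts cannot show as many genes. At 56 counts, the total of the smallest library, the number of genes expected was 22.5, 25.2 and 20.7 in AAV5-*V1+V2* and 25.5, 33.5 and 26 in AAV5-*Gfp* libraries. At equal depth the AAV5-*V1+V2* libraries thus held no more genes, and each lay below all AAV5-*Gfp* values. The inverse Simpson index, the number of equally used genes that would give the same concentration, was 8.92, 19.5 and 12.1 against 18.9, 27.8 and 13.1. These ranges overlapped (means 13.5 ± 5.43 and 19.9 ± 7.43, SD, n = 3). The index corrected for small totals was 8.92, 19.5 and 12.1 against 20.4, 37.9 and 16.7, with means of 13.5 ± 5.45 and 25.0 ± 11.3, and those ranges overlapped too. Pielou's evenness was 0.661, 0.747 and 0.673 against 0.848, 0.929 and 0.90, without overlap, but it too depends on depth.

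The counts were concentrated in few genes in all libraries. The number of genes that together held 50% of the counts was 5, 7 and 4 in AAV5-*V1+V2* and 7, 10 and 5 in AAV5-*Gfp* libraries. The 10 most counted genes held 68.1%, 60.7% and 74.9% against 64.8%, 51.0% and 67.9%. Per kilobase of transcript the same gene led each library as by counts, the tested genes being 347 to 501 bases long.

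**Figure D4:**
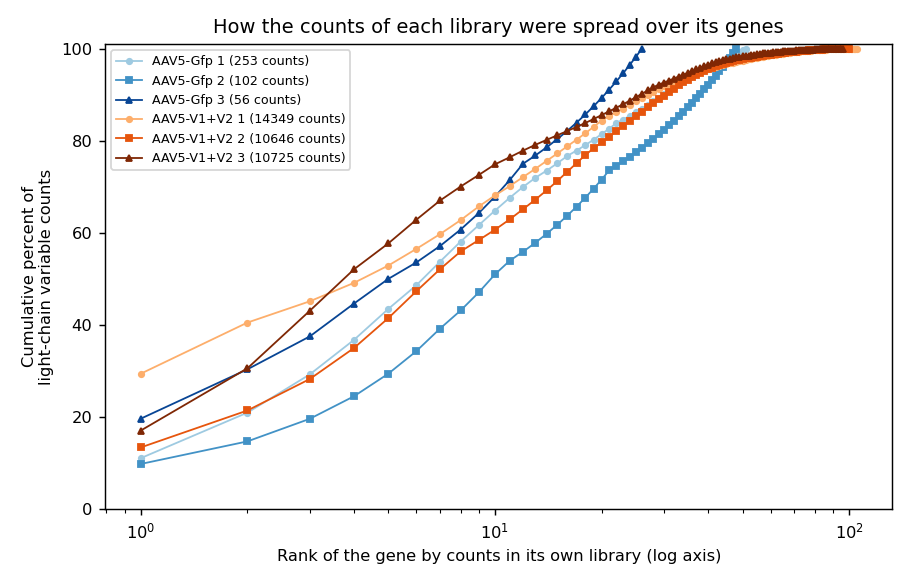
Cumulative percent of light-chain variable counts against the rank of the gene in its own library (log axis), with 1 line per library. AAV5-*V1+V2* replicate 1 starts highest, with 29.4% in *Igkv6-15*, and the lines of both groups cross; the totals behind them run from 56 to 14349 counts, so the lines are not at equal depth.

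The kappa genes lie on chromosome 6, from 67555497 to 70704177 (GRCm38), 18.7 to 3167 kb from *Igkj1*, the first joining gene. The 80 genes nearer to it, within 1483 kb, held 77.4%, 67.6% and 67.1% of kappa counts in AAV5-*V1+V2* and 58.9%, 42.3% and 44.2% in AAV5-*Gfp* libraries. The intervals of the control shares were 52.3 to 65.2%, 32.3 to 52.7% and 30.5 to 58.7%, so every control share and its interval lay below the shares of the other group. Genes on the plus strand, the strand of *Igkc*, are 75 of the 160. Their share was 14.5%, 36.0% and 32.2% against 44.1%, 45.4% and 30.8%, with overlap. These shares turn on single genes, since *Igkv6-15*, on the minus strand 316 kb from *Igkj1*, alone was 29.4% of the light-chain variable counts of AAV5-*V1+V2* replicate 1.

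**Figure D5:**
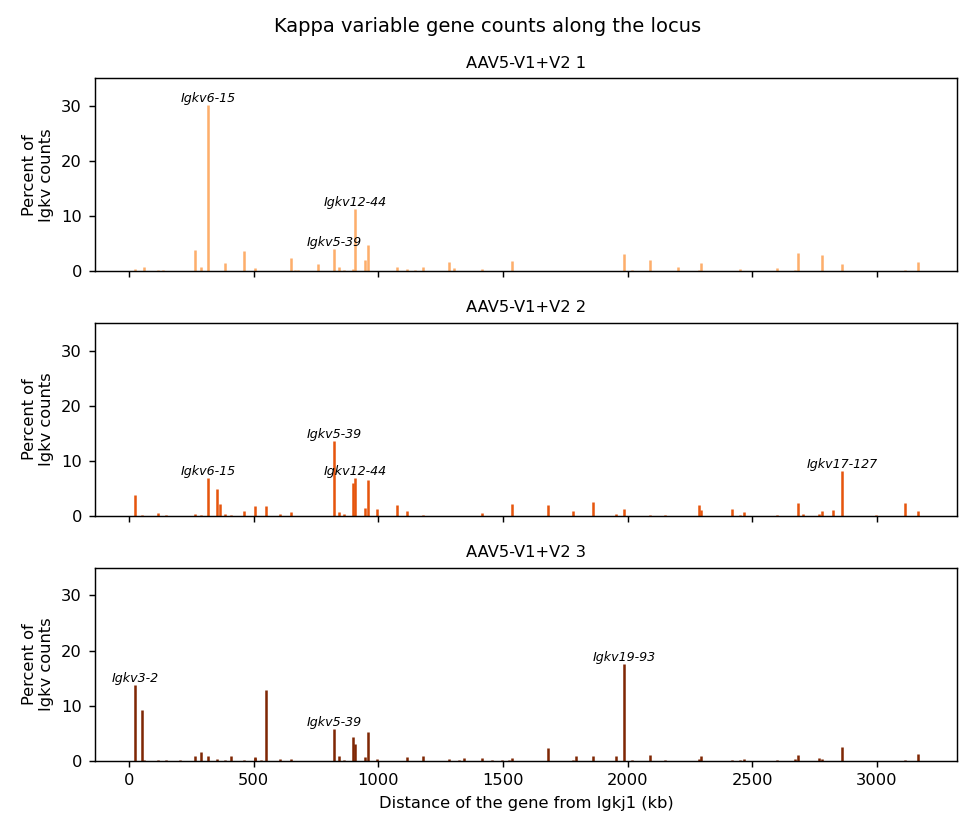
Percent of *Igkv* counts of each AAV5-*V1+V2* library (1 panel per library, 1 vertical line per gene) against the gene's distance from *Igkj1* in kb. The tallest lines stand at different places in each panel, *Igkv6-15* in replicate 1, *Igkv5-39* in replicate 2 and *Igkv19-93*, 1986 kb away, in replicate 3.

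Of the 163 genes, 103 are annotated as variable genes and 60 as pseudogenes. Of the variable genes 100 had a count, and of the pseudogenes 15. Pseudogenes held 0.997%, 0.986% and 1.01% of counts in AAV5-*V1+V2* libraries, and 3, 2 and 0 counts in AAV5-*Gfp* libraries. The only pseudogene tested, *Igkv12-40*, was at 0 in every AAV5-*Gfp* library and at 119, 79 and 92 counts in the others, at least 31.5-fold higher (edgeR adjusted p = 0.00623). It is 93.1% identical to *Igkv12-46* and 92.5% to *Igkv12-44*.

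The other genes of the antibody and B-lineage rose in large part too. The heavy-chain variable genes (185 in the table) summed to 207, 59 and 46 counts in AAV5-*Gfp* and 12432, 8467 and 7728 in AAV5-*V1+V2* libraries. The ratio of light-chain to heavy-chain variable counts was 1.22, 1.73 and 1.22 against 1.15, 1.26 and 1.39, so the sums kept step within the spread between libraries. Of 8 heavy-chain constant genes 7 were tested, 6 rose and 0 fell, against 10.1% of all genes tested called higher and 5.27% called lower. *Ighg2c*, of an IgG class, had 91, 42 and 53 against 24620, 19225 and 16558 counts (edgeR adjusted p = 0.000303), and *Igha*, of IgA, had 61, 83 and 44 against 9914, 5816 and 6916 counts (edgeR adjusted p = 0.000303). Of 7 genes of V(D)J recombination and the surrogate light chain, 2 were tested and 1 rose (*Vpreb3*, with 9, 7 and 9 against 49, 27 and 33 counts), and the recombinase genes *Rag1* and *Rag2* had at most 2 counts in any library.

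Light-chain variable counts were set against a plasma cell gene and a B cell gene. *Jchain*, which joins secreted IgA and IgM, had 125, 36 and 47 counts in AAV5-*Gfp* and 6375, 6017 and 5792 in AAV5-*V1+V2* libraries. For each *Jchain* count there were 2.02, 2.83 and 1.19 light-chain variable counts against 2.25, 1.77 and 1.85. *Cd79a*, a signalling part of the B cell receptor, had 85, 47 and 57 against 640, 365 and 297 counts, and light-chain variable counts for each *Cd79a* count were 2.98, 2.17 and 0.982 against 22.4, 29.2 and 36.1. The light-chain sum thus moved with *Jchain* within the spread between libraries, and far more than *Cd79a* did. This holds for these 2 genes and not for their lists. *Jchain* had the largest log2 fold change of the plasma cell and secretion genes tested (6.41, where the lowest was 0.648). *Cd79a*, at 2.75, falls outside the naming rule. *Ms4a1*, of the same list as *Cd79a*, was at 5.49, with 12, 12 and 4 against 708, 276 and 314 counts. Of 12 B cell receptor partners 11 rose, of 11 plasma cell and secretion genes 9 rose, and of 10 germinal centre genes 7 rose. Over all genes tested, 10.1% were called higher and 5.27% lower. In each of the 3 lists 0 were called lower, at an unadjusted p under 0.05 as well, and 0 were lower by DESeq2 or limma-voom. The median log2 fold changes of these 3 lists were 2.87, 1.78 and 2.19, respectively. Over these lists and those of the constant and recombination genes, 36 of 43 genes tested were called with all libraries. The number called was 29 without AAV5-*Gfp* replicate 1, 5 without replicate 2 and 5 without replicate 3. The share of all genes called higher was then 1.35%, 0.0634% and 0.0792%, respectively.

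Markers of other cells that a dissected ganglion could hold moved as well, and their part in the light-chain results was not tested. For scale, edgeR called 10.1% of all genes tested higher and 5.27% lower. Of 9 T cell markers 8 rose, with summed levels of 4.10 to 11.1 CPM in AAV5-*Gfp* and 39.2 to 85.1 CPM in AAV5-*V1+V2* libraries. Of 8 macrophage markers 7 rose, at 171 to 239 against 499 to 1401 CPM. With edgeR 0 of 7 erythrocyte markers were called (2 were higher at an unadjusted p under 0.05; DESeq2 called 1 and limma-voom 0), and their summed levels of 912 to 1085 and 855 to 1284 CPM overlapped. Of 6 lymph node stroma markers 2 rose, *Ccl19* and *Glycam1*, at 8.40 to 10.4 against 13.0 to 28.5 CPM for the list, and *Ccl21a* had 118, 111 and 111 against 162, 112 and 141 counts (edgeR adjusted p = 0.338). With edgeR 0 of 9 glia markers were called (1 was lower at an unadjusted p under 0.05; DESeq2 and limma-voom called 0). Of 12 DRG neuron markers 8 were lower at an unadjusted p under 0.05 with edgeR, a threshold for which no share of all genes is given. DESeq2 called 6 of them lower (1606 of all 18593 genes tested) and limma-voom 2 (842 of all 18593). By edgeR's adjusted p 2 fell, *Rbfox3* and *Pou4f1*. Both calls were lost without any 1 AAV5-*Gfp* library, that of *Rbfox3* also without AAV5-*V1+V2* replicate 2 and that of *Pou4f1* without AAV5-*V1+V2* replicate 3 or with scaling by total counts only.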

How the data were processed

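RNA libraries of L3/4 DRGs were made with a stranded total RNA kit, 3 per group. The authors deposited whole-number read counts per gene symbol, and their processing notes name the build GRCm38 (mm10). The aligner, the annotation and the strand setting are not given in the sources used here. From these counts, genes were filtered and tested with edgeR 4.0.16 in R 4.3.3 (filterByExpr, trimmed mean of M values, glmQLFit and glmQLFTest, group as the only term, Benjamini-Hochberg adjustment over 18593 genes, threshold 0.05). The fit was run first on simulated data in which 200 genes drawn from all genes tested were changed 4-fold or 8-fold. It recovered 96.3% of the 4-fold and 99.4% of the 8-fold changes, and 7.16% of its calls were false, more than the threshold of 0.05 sets. Each simulated gene started from its mean level over all 6 libraries, and the changed genes were only raised. These rates therefore do not describe genes near 0 counts in the controls, such as most light-chain variable genes. DESeq2 1.42.0 and limma 3.58.1 (voom) were alternatives, with other scalings, filters and thresholds and each library left out in turn. All 163 symbols matched GENCODE M21, from which positions and sequences came, and identities were computed with Biopython 1.88. Binomial and counting intervals are exact at 95%, and a gene at 0 in a group was set to 3 counts per library for a bound on its fold.

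Named genes were the 10 light-chain variable genes with the highest mean CPM, the most counted gene of each library, each *Iglv* gene, up to 6 genes with at least 4 counts in 2 or more AAV5-*Gfp* libraries, the 4 called genes with the smallest adjusted p, up to 4 tested genes not called, and up to 3 genes per list of other genes, of which the text gives some. The members and the lists were chosen with earlier results of these data known. Same-group libraries differed by more than sampling noise, so none was counted as a duplicate.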

Additional observations from a re-analysis of the deposited data

How the results depend on the processing

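With 35 light-chain variable genes called higher as the reference, the scalings, DESeq2 (36) and a filter of 10 counts in 3 libraries (38 of 44 tested) gave 35 to 38, whereas no filter beyond 1 count gave 58 of 115 tested (6.87% of all genes were then called higher), limma-voom 20 (7.64%) and an adjusted p under 0.01 gave 6 (0.167%). Leaving out 1 library at a time gave 2 to 45 (0.0634% to 13.1% of all genes), and 5 to 37 for the 36 other antibody and B-lineage genes called, the low values without an AAV5-*Gfp* library. No light-chain variable gene was called lower under any of these. Constant in place of variable genes turned the kappa share difference from 3.96 to -20.5 percentage points. At the smallest library's 56 counts, the difference in genes detected was -5.53 in place of 58.7. Summing near-identical genes, chosen after seeing the data, gave 36 called higher. Over 53 named genes, 125 of 899 values under alternatives lost the call, 81 of them without an AAV5-*Gfp* library, 21 gained it and 0 turned direction.

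Replicate numbers are shared between groups, but nothing says that they mark animals or batches. Deviations of same-numbered libraries correlated at 0.036, 0.0658 and 0.107, and not every library correlated best with its own number. With the replicate number as a block, 37 light-chain variable genes and 37 other antibody and B-lineage genes were called higher, with 11.4% of all genes called higher.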

Other observations

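Genes that overlap or adjoin the light-chain loci also had more counts in the AAV5-*V1+V2* libraries; these were picked after their values were seen. *2010309G21Rik*, which overlaps *Iglv1* on the opposite strand, had 80, 54 and 51 counts in AAV5-*Gfp* and 929, 554 and 489 in AAV5-*V1+V2* libraries. *Gm43388*, a long noncoding RNA gene next to *Iglv3*, had 43, 15 and 13 against 483, 219 and 202 counts. *Gm42889*, which overlaps *Igkv2-137* on the same strand, had 4, 1 and 1 against 39, 17 and 12 counts. Since the strand setting of the counting is not given in the sources used here, counts of *Iglv1* and of its antisense neighbour cannot be told apart with certainty.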
